A study of Mus musculus with 9 samples.

Results

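Ntn5, Akr1c18, Alox12b, Krt2, Krt73, Slc9a4, Ly6g6e and Itprid1 are 8 genes of the mouse hippocampus whose transcripts were at or near 0 counts, or strongly lowered, in ethanol-exposed mice given an antibody against interleukin 17A. They were chosen for those low counts, so their low values in the antibody group are described here without a test. All 8 of 8 were found among the 14779 genes of the count table, and all 8 passed the filter on low counts that left 14696 genes. They passed it through the control groups: 3 of their 24 values reached 10 counts in the antibody group, against 21 of 24 in ethanol-exposed mice given control IgG and 23 of 24 in air-kept mice given control IgG. The name "nearly lost" was borne out unevenly by the values. Ntn5, Akr1c18 and Krt2 summed to 2, 2 and 3 counts over the 3 antibody libraries, whereas Ly6g6e overlapped between the antibody group and the ethanol-exposed IgG group.

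Polyadenylated RNA of dissected hippocampus was sequenced in 9 stranded libraries, with 3 mice in each of 3 groups by the series' design text. In the CIE+IL17 Ab group, mice were exposed to chronic intermittent ethanol (CIE) and received the antibody against interleukin 17A, a cytokine of the immune system. In the CIE+IgG group, mice had the same ethanol exposure and received control IgG, and in the Air+IgG group, mice were kept in air and received control IgG. An air group with the antibody was not analysed here, and the labels give no strain, sex or age. The libraries held 7372658 to 11894628 estimated counts, and p-values measure the spread between these 3 libraries a group. Libraries CIE+IL17 Ab 1 and Air+IgG 2 held 495056.50 and 593543.78 counts of Lars2, against at most 2167.35 in the other 7 libraries. The label numbers fall into 37 to 39, with 1 library a group, and 54 to 60, with 2 libraries a group, and what these numbers mean is not given.

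The 8 genes come from families that work in different places. Netrins are secreted or anchored guidance cues read by receptors of the DCC and UNC5 families, and Ntn5 has been reported in neurogenic regions of the adult mouse brain. Akr1c18 encodes a 20-alpha-hydroxysteroid dehydrogenase that inactivates progesterone, the precursor of neurosteroids such as allopregnanolone. Alox12b, Krt2 and Krt73 are known from skin and hair: a lipoxygenase that acts before Aloxe3 in building the epidermal water barrier, a keratin of the upper epidermis, and a keratin of the inner root sheath. Slc9a4 encodes a sodium-proton exchanger of the plasma membrane, Ly6g6e a lipid-anchored protein of the Ly6 family that modulates nicotinic acetylcholine receptors, and Itprid1 a protein with an inositol trisphosphate receptor-interacting domain.

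Promoter windows of 250 bases before the transcription start were found for 6 of the 8 genes, and those of 4 genes are shown because Ntn5, Akr1c18 and Krt2 had the lowest counts in the antibody group and Krt73 is the neighbour of Krt2. Sequences are from RefSeq on GRCm38.p6, written 5′ to 3′ on the strand of the gene and ending at the base before the RefSeq start, at chr7:45683772-45684021 (plus strand) for Ntn5, chr13:4150647-4150896 (minus strand) for Akr1c18, chr15:101818170-101818419 (minus strand) for Krt2 and chr15:101802361-101802610 (minus strand) for Krt73. Capitals mark matches on either strand to the TATA box (TATAAA), the AP-1 motif (TGANTCA), the CCAAT box or the GC box (GGGCGG).
Ntn5: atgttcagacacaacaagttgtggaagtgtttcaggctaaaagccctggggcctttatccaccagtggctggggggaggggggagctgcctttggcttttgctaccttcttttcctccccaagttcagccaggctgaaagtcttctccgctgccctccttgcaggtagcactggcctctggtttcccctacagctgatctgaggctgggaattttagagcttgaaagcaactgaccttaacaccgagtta
Akr1c18: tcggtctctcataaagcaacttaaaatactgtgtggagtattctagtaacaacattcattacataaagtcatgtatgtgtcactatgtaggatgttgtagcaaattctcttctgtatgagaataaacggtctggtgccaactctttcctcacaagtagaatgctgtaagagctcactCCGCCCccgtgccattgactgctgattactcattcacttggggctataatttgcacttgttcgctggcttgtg
Krt2: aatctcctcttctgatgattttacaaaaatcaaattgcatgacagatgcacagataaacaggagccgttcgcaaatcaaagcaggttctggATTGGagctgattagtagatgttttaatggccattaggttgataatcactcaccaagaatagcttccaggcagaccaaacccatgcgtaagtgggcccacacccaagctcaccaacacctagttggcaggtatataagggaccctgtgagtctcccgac
Krt73: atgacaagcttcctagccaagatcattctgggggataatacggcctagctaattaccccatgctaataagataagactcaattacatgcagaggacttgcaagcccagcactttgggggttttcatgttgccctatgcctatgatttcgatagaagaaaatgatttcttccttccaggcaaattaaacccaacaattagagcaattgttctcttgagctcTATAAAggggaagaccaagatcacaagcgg
By its exact letters TATAAA, the TATA box stood in 1 of the 6 windows, 30 bases before the start of Krt73, and in 13.0% of all 27025 windows of the same length. Variants of these letters were not searched for. The CCAAT box stood in 1 of 6, in Krt2 on the reverse strand, its first printed base 159 bases before the start, against 34.5% of all windows, and the GC box stood in 2 of 6, Akr1c18 and Alox12b, against 32.9%. The AP-1 motif stood in 0 of 6, against 6.87% of all windows. The E-box (CANNTG), not capitalised above, stood in 6 of 6, against 66.0% of all windows. None of the capitalised matches overlapped another. These matches describe letters in the windows and show no bound factor.

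The 8 genes lie at 7 places in the genome, given on GRCm38 with GENCODE M21. Krt2 (ENSMUSG00000064201, chr15:101810689-101818169, minus strand) and Krt73 (ENSMUSG00000063661, chr15:101793308-101802346, minus strand) are neighbours, 8343 bases apart. Ntn5 (ENSMUSG00000070564, chr7:45684022-45694556, plus strand) overlaps Sec1 on the other strand, and its estimated counts carried decimals in 6 of 9 libraries. Akr1c18 (ENSMUSG00000021214) lies at chr13:4132615-4150654 on the minus strand, Alox12b (ENSMUSG00000032807) at chr11:69156989-69169792 on the plus strand and Itprid1 (ENSMUSG00000037973) at chr6:55836895-55978735 on the plus strand. Slc9a4 (ENSMUSG00000026065, chr1:40580081-40630725, plus strand) overlaps the antisense gene Gm35801, and Ly6g6e (ENSMUSG00000013766, chr17:35076902-35078804, plus strand) overlaps Ly6g6d on the other strand. Whether the counting used strand is not stated in the sources at hand, so reads of Ntn5, Slc9a4 and Ly6g6e may include reads of their overlapping partners.

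In the antibody group, every one of the 8 genes stood at 26.5% or less of its level in CIE+IgG and at 14.0% or less of its level in Air+IgG. The 3 antibody libraries lay below all 3 Air+IgG libraries for 8 of 8 genes and below all 3 CIE+IgG libraries for 7 of 8, where 18.1% and 13.2% of all genes tested did so. The genes were chosen by these values, so nothing is read from the counts.

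Ntn5, the netrin, had 0, 1 and 1.47 estimated counts in CIE+IL17 Ab libraries 1 to 3, against 27.15, 55.96 and 22.76 in CIE+IgG libraries and 49.85, 9 and 49.86 in Air+IgG libraries. The 3 antibody libraries all lay below the 6 IgG libraries, and the lowest IgG library was Air+IgG 2. Scaled by library size (CPM, counts scaled to library size with TMM), Ntn5 averaged 0.0612 ± 0.0548 CPM in CIE+IL17 Ab, 3.87 ± 2.36 CPM in CIE+IgG libraries and 3.79 ± 2.26 CPM in Air+IgG libraries (SD, n = 3 each). Its summed level in the antibody group was 1.83% of that in CIE+IgG, with a 95% exact (Clopper-Pearson) interval of 0.219% to 6.78%, and 1.70% of that in Air+IgG (0.203% to 6.28%). These intervals cover counting error only. Fitted log2 fold changes of Ntn5 were -5.57 (SE 0.94) against CIE+IgG and -5.58 (SE 0.94) against Air+IgG, and with a prior count of 2 in place of edgeR's default they were -3.86 and -3.87. Without CIE+IgG 2 the value against CIE+IgG was -4.97.

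Akr1c18, the progesterone-inactivating enzyme, had 0, 0 and 2 counts in CIE+IL17 Ab libraries, against 25, 21 and 8 in CIE+IgG libraries and 19, 23 and 24 in Air+IgG libraries. The antibody libraries did not overlap either IgG group, and CIE+IgG 3 stood below the other 5 IgG libraries. Akr1c18 averaged 0.0703 ± 0.122 CPM in CIE+IL17 Ab, 1.96 ± 1.06 CPM in CIE+IgG libraries and 2.47 ± 0.546 CPM in Air+IgG libraries (SD, n = 3 each). The antibody group kept 3.59% of the CIE+IgG level (95% exact interval 0.424% to 13.6%) and 2.80% of the Air+IgG level (0.332% to 10.5%). Its fitted log2 fold changes were -4.58 (SE 0.88) and -4.92 (SE 0.86), and with a prior count of 2 they were -2.94 and -3.25. Without CIE+IL17 Ab 3, the 1 antibody library with counts of Akr1c18, they were -7.21 and -7.55, values that depend on the prior count, and without CIE+IL17 Ab 2 they were -3.89 and -4.23.

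Alox12b, the skin-barrier lipoxygenase, had 7, 4 and 11 counts in CIE+IL17 Ab libraries, against 64, 75 and 43 in CIE+IgG libraries and 53, 60 and 64 in Air+IgG libraries. Every antibody library lay below every IgG library. The means of Alox12b were 0.815 ± 0.445 CPM in CIE+IL17 Ab, 6.55 ± 2.40 CPM in CIE+IgG libraries and 6.62 ± 1.26 CPM in Air+IgG libraries (SD, n = 3 each). Its antibody level was 11.7% of CIE+IgG (7.17% to 18.3%) and 11.5% of Air+IgG (7.02% to 17.9%), and its log2 fold changes were -3.05 (SE 0.46) and -3.07 (SE 0.46).

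Of the keratins, Krt2 had 0, 1 and 2 counts in CIE+IL17 Ab libraries, against 27, 27 and 16 in CIE+IgG libraries and 45, 15 and 49 in Air+IgG libraries. Its neighbour Krt73 had 2, 1 and 13 counts in CIE+IL17 Ab libraries, against 42, 37 and 37 in CIE+IgG libraries and 40, 24 and 42 in Air+IgG libraries. Both keratins were free of overlap between the antibody group and the IgG groups, but CIE+IL17 Ab 3 kept Krt73 counts that it did not keep for Krt2. Krt2 averaged 0.0964 ± 0.107 CPM in CIE+IL17 Ab, 2.52 ± 0.898 CPM in CIE+IgG libraries and 3.84 ± 1.59 CPM in Air+IgG libraries (SD, n = 3 each). Krt73 averaged 0.576 ± 0.696 CPM in CIE+IL17 Ab, 4.10 ± 0.568 CPM in CIE+IgG libraries and 3.85 ± 0.565 CPM in Air+IgG libraries (SD, n = 3 each). Krt2 was kept at 4.16% of CIE+IgG (0.838% to 12.7%) and Krt73 at 13.4% (7.41% to 22.7%). In CIE+IL17 Ab 3 alone, Krt73 stood at 33.8% of CIE+IgG (17.5% to 60.1%), and without that library its fitted log2 fold change against CIE+IgG was -4.62, against -2.84 with all libraries and -2.22 without CIE+IL17 Ab 2. The fitted log2 fold changes of Krt2 were -4.45 (SE 0.71) against CIE+IgG and -5.08 (SE 0.68) against Air+IgG, and they were -3.12 and -3.71 with a prior count of 2 and -5.33 and -5.97 without CIE+IL17 Ab 3.

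Slc9a4, the sodium-proton exchanger, was the most abundant of the 8 genes in raw counts and showed the widest spread in CPM within the antibody group. It had 1, 4 and 30 counts in CIE+IL17 Ab libraries, against 198, 109 and 154 in CIE+IgG libraries and 144, 86 and 193.01 in Air+IgG libraries. The groups did not overlap, with 30 counts in CIE+IL17 Ab 3 set against 86 in the lowest IgG library. Slc9a4 averaged 1.21 ± 1.70 CPM in CIE+IL17 Ab, 16.1 ± 4.52 CPM in CIE+IgG libraries and 15.1 ± 3.38 CPM in Air+IgG libraries (SD, n = 3 each). Over the group it was kept at 7.37% of CIE+IgG (5.07% to 10.4%). By library, Slc9a4 stood at 0.862% (0.0218% to 4.83%) of CIE+IgG in CIE+IL17 Ab 1, 1.94% in CIE+IL17 Ab 2 and 19.6% (13.1% to 28.4%) in CIE+IL17 Ab 3. Without CIE+IL17 Ab 3 its fitted log2 fold change was -5.96, against -3.73 (SE 0.70) with all libraries.

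Ly6g6e, the Ly6-family protein, had 3, 2 and 4 counts in CIE+IL17 Ab libraries, against 3, 22 and 8 in CIE+IgG libraries and 30, 14 and 26 in Air+IgG libraries. The antibody group lay below every Air+IgG library but overlapped CIE+IgG, where library 1 had as few counts as CIE+IL17 Ab 1. Ly6g6e averaged 0.332 ± 0.152 CPM in CIE+IL17 Ab, 1.21 ± 1.20 CPM in CIE+IgG libraries and 2.53 ± 0.686 CPM in Air+IgG libraries (SD, n = 3 each). Its antibody level was 26.5% of CIE+IgG (11.1% to 56.5%) and 11.9% of Air+IgG (5.22% to 23.9%). The log2 fold change of Ly6g6e against CIE+IgG was -1.88 (SE 0.79), and without CIE+IgG 2 it was -0.78.

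Itprid1, the gene with the inositol trisphosphate receptor-interacting domain, had 0, 0 and 7 counts in CIE+IL17 Ab libraries, against 30, 32 and 13 in CIE+IgG libraries and 36, 16 and 38 in Air+IgG libraries. All its antibody counts came from CIE+IL17 Ab 3, and that library still lay below every IgG library. Itprid1 averaged 0.246 ± 0.426 CPM in CIE+IL17 Ab, 2.73 ± 1.34 CPM in CIE+IgG libraries and 3.22 ± 0.935 CPM in Air+IgG libraries (SD, n = 3 each). It was kept at 9.06% of CIE+IgG (3.52% to 19.6%) over the group and at 28.1% (10.9% to 60.9%) in CIE+IL17 Ab 3. The fitted log2 fold change of Itprid1 was -3.41 (SE 0.92) against CIE+IgG and -3.68 (SE 0.91) against Air+IgG. Without CIE+IL17 Ab 3 it was -7.69 against CIE+IgG, a value that depends on the prior count because the other 2 antibody libraries are at 0, and without CIE+IL17 Ab 2 it was -2.70.

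**Figure D1:**
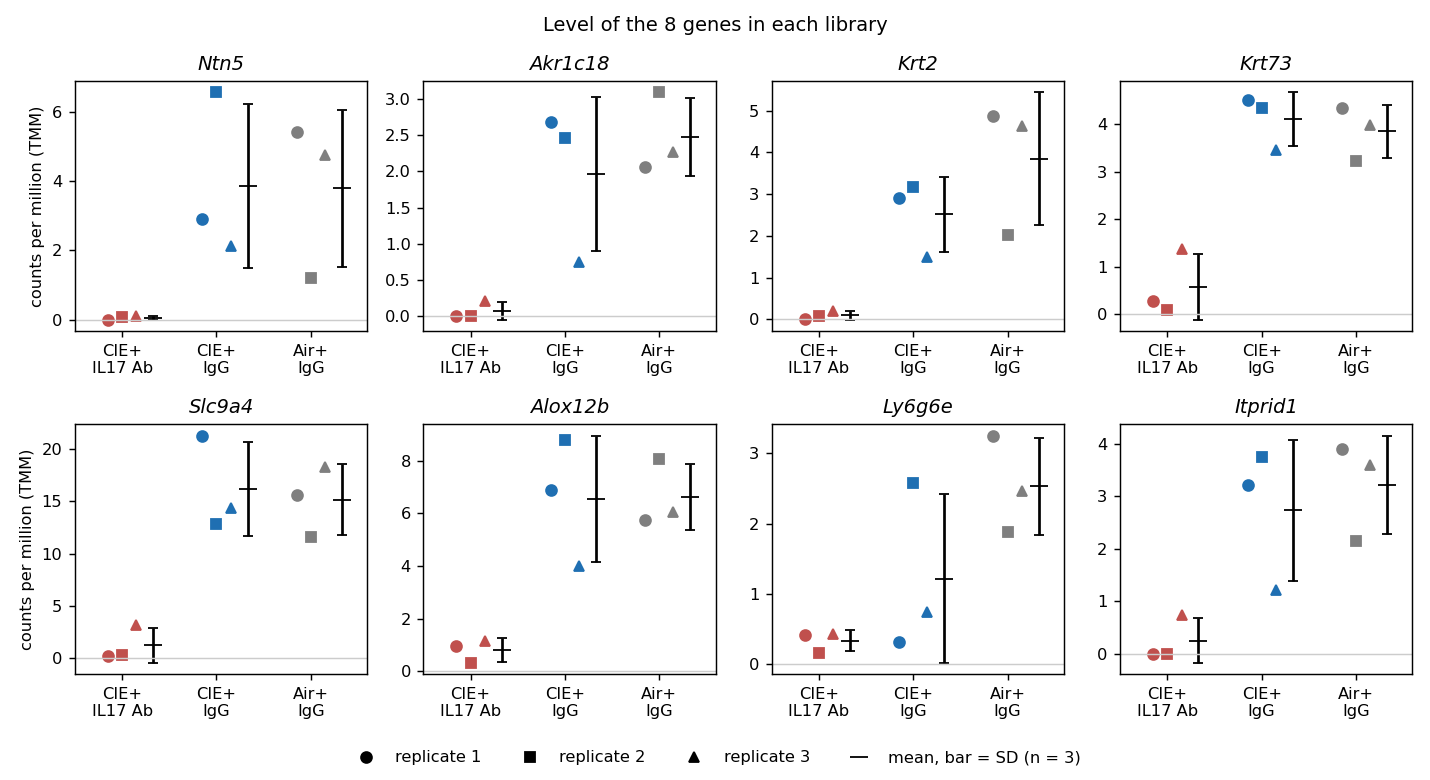
Level of each of the 8 genes in each library (points, TMM-scaled CPM) with the group mean and SD (n = 3) beside them, in CIE+IL17 Ab, CIE+IgG and Air+IgG. The antibody points lie below all Air+IgG points in 8 of 8 genes and below all CIE+IgG points in 7 of 8, Ly6g6e being the exception, and the antibody point of replicate 3 is the highest of its group in every panel.

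Some libraries were the highest or lowest of their group for most of the 8 genes. Within the antibody group, CIE+IL17 Ab 3 had the highest CPM of 8 of 8 genes. Within CIE+IgG, library 3 had the lowest CPM of 6 of 8 genes, and within Air+IgG, library 2 had the lowest of 6 of 8 and the highest of 2 of 8. As the mean of the 8 genes' log2 CPM, centred on the 9 libraries, the group stood at -2.43, -2.58 and -1.19 in CIE+IL17 Ab libraries 1 to 3, at 0.96, 1.37 and 0.34 in CIE+IgG libraries and at 1.39, 0.82 and 1.33 in Air+IgG libraries. Of the 24 antibody values, 16 were of at most 3 counts, and 6 of these were 0.

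By summed counts, the share kept in the antibody group ran from 1.83% of CIE+IgG for Ntn5 to 26.5% for Ly6g6e, and from 1.70% of Air+IgG for Ntn5 to 14.0% for Krt73 (7.70% to 23.7%). The intervals of Ntn5, Akr1c18 and Krt2 overlapped one another in both comparisons, as did those of Krt73, Alox12b and Itprid1. The intervals leave out the spread between mice, and the order of the genes was not tested. In libraries numbered 54 to 60, with 2 a group, the shares of CIE+IgG were 1.29% (0.0323% to 7.39%) for Ntn5, 4.66% (0.547% to 17.8%) for Akr1c18, 3.97% (0.468% to 15.0%) for Krt2, 20.3% for Krt73, 10.8% for Slc9a4, 13.9% for Alox12b, 30.0% for Ly6g6e and 12.1% for Itprid1. In libraries 37 to 39, with 1 a group, Ntn5 stood at 3.65% (0.0886% to 22.5%) and Krt2 at 5.25%, with an interval that ended at 33.8%, both above their shares in libraries 54 to 60. Below theirs, Krt73 stood at 2.27% (0.056% to 13.5%), Slc9a4 at 2.18%, Alox12b at 7.81% and Ly6g6e at 21% (2.17% to 105.0%), while Akr1c18 and Itprid1 had 0 counts in the antibody library, against 8 and 13 counts in the CIE+IgG library.

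**Figure D2:**
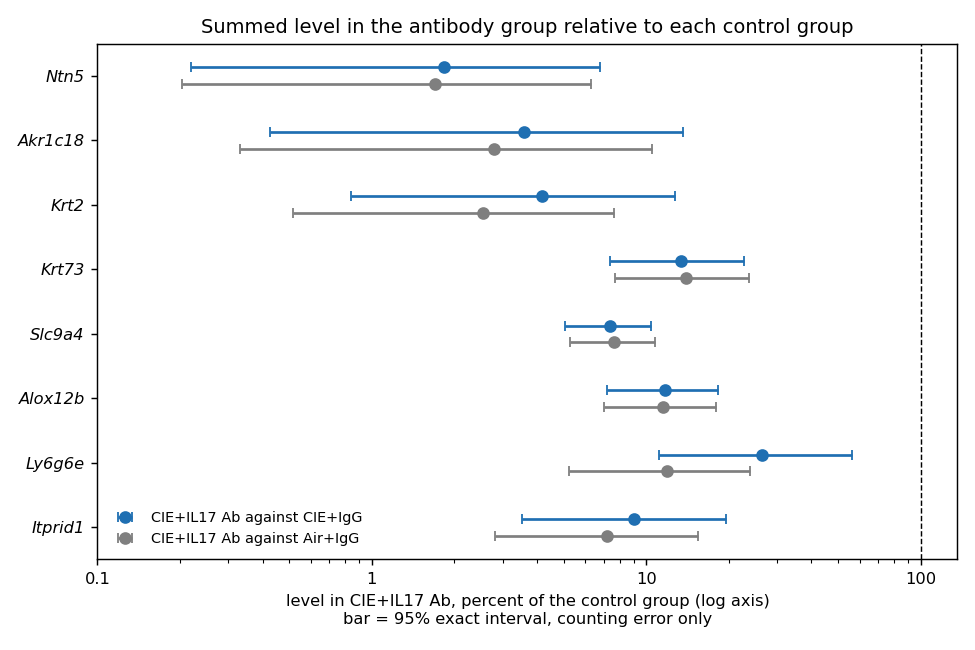
Summed level of each gene in CIE+IL17 Ab as a percent of CIE+IgG (blue) and of Air+IgG (grey), on a log axis, with bars for the 95% exact interval of counting error and a dashed line at 100%. All points lie between 1.70% and 26.5%, with Ntn5 lowest in both comparisons and Ly6g6e the one whose 2 points lie farthest apart (26.5% and 11.9%).

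Per kilobase of exon, the 8 genes stood in a different order in the antibody group and in the IgG groups. In Air+IgG, Slc9a4 stood highest at 3.32 ± 0.741 CPM per kilobase, followed by Alox12b at 2.72 ± 0.519, Akr1c18 at 2.05 ± 0.452, Ly6g6e at 1.99 ± 0.539, Krt73 at 1.77 ± 0.260, Ntn5 at 1.71 ± 1.02, Krt2 at 1.47 ± 0.607 and Itprid1 at 0.896 ± 0.260 (SD, n = 3). Each gene overlapped the next in this order within 1 SD of each. In the antibody group, Alox12b stood at 0.335 ± 0.183 CPM per kilobase, Krt73 at 0.266 ± 0.321, Slc9a4 at 0.264 ± 0.372 and Ly6g6e at 0.261 ± 0.119 (SD, n = 3), and the other 4 genes stood between 0.0276 for Ntn5 and 0.0686 for Itprid1. These are low levels throughout: in the IgG groups the means of the 8 genes ran from 1.21 CPM for Ly6g6e to 16.1 CPM for Slc9a4, both in CIE+IgG. In bulk tissue, fewer cells of a type and less RNA per cell cannot be told apart.

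Genes outside the 8 had fold changes as low or lower. Ordered by whichever of the 2 antibody fold changes lay closer to 0, Ntn5 ranked 6, Akr1c18 8, Krt2 10, Slc9a4 11, Itprid1 13, Alox12b 14, Krt73 19 and Ly6g6e 71 of 14696 genes. 2210418O10Rik, ranked 1, had 0 counts summed over CIE+IL17 Ab libraries, against 372 in CIE+IgG and 601 in Air+IgG, and Gemin4, ranked 9, had 6, against 143 and 187. Next to Krt73, with log2 fold changes of -2.84 (SE 0.63) against CIE+IgG and -2.76 (SE 0.63) against Air+IgG, stood Fermt1 with -2.79 and -3.60 and Lefty1 with -2.81 and -2.75. The median log2 fold change of the 8 genes was -3.57 against CIE+IgG and -3.66 against Air+IgG, beside medians of 0.015 and 0.012 over all genes tested, a difference that the choice of the genes sets.

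Ethanol exposure, compared between CIE+IgG and Air+IgG, gave no call among the 8 genes. The genes were chosen relative to these same IgG libraries, and the antibody libraries share in the estimate of the spread behind this test. With edgeR's quasi-likelihood test and Benjamini-Hochberg adjustment over 14696 genes, 0 of 8 passed an adjusted p of 0.05 in CIE+IgG against Air+IgG, beside 0% of all genes tested, and the adjusted p was 1.0 for each. At an unadjusted p under 0.05, edgeR gave 0 of 8 and 406 of all genes. DESeq2 called 0 of the 8 genes and 6 of all genes, and limma-voom called 0 of 8 and 0 of all. At an unadjusted p under 0.05, limma-voom gave 1 of 8 and 378 of all genes. With edgeR, 1 of 8 and 657 of all stood there without both Lars2-rich libraries, and 1 of 8 and 755 of all without CIE+IgG 2. With only CIE+IgG and Air+IgG libraries fitted, edgeR again called 0 of 8, and 0 stood at an unadjusted p under 0.05. No gene of the 8 separated CIE+IgG from Air+IgG without overlap, beside 9.44% of all genes.

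Ly6g6e and Krt2 had the lowest estimates in that comparison. Ly6g6e had a log2 fold change of -1.09 (SE 0.61, 95% interval -2.48 to 0.29, edgeR unadjusted p = 0.108, adjusted p = 1.0), with CIE+IgG 2 at 22 counts within the range of 14 to 30 counts in Air+IgG, and without CIE+IgG 2 it was -2.20. Krt2 had -0.63 (SE 0.44, interval -1.64 to 0.37, edgeR adjusted p = 1.0). The other 6 lay nearer 0, from -0.34 (SE 0.54, interval -1.55 to 0.87) for Akr1c18 to 0.09 (SE 0.55, interval -1.17 to 1.34) for Slc9a4. For Ntn5 the estimate was -0.00 with an interval of -1.24 to 1.24, and -0.61 without CIE+IgG 2, and for Alox12b, the tightest, it was -0.02 (SE 0.37) with an interval of -0.86 to 0.82. For most of the genes the interval reached past 1 log2 unit below or above 0, and changes within it were not detectable with these libraries. Of the 8 estimates, 6 were below 0 and 2 above, with a median of -0.14, beside -0.007 over all genes.

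**Figure D3:**
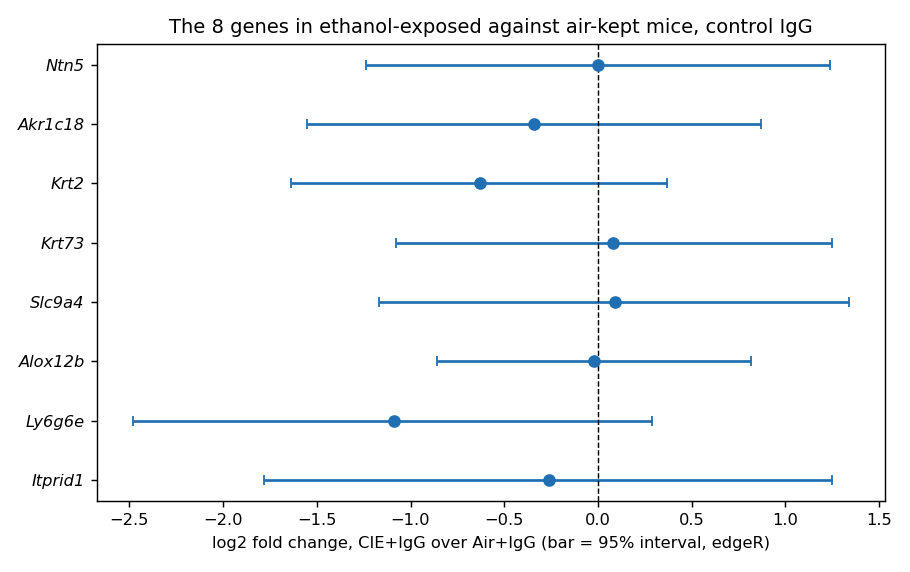
Log2 fold change of each gene in CIE+IgG over Air+IgG from edgeR (points) with its 95% interval (bars) and a dashed line at no change. All 8 intervals cross 0, from Ly6g6e (-1.09) to Slc9a4 (0.09).

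The ethanol comparison was also described by set of label numbers. In libraries 37 to 39, 1 a group, CIE+IgG stood at 45.3% of Air+IgG for Ntn5, 32.8% for Akr1c18 and 66.1% for Alox12b. It stood at 32.1% for Krt2, 86.7% for Krt73, 78.5% for Slc9a4, 30.3% for Ly6g6e and 33.7% for Itprid1. In libraries 54 to 60, with 2 a group, CIE+IgG stood at 131% of Air+IgG for Ntn5, 102% for Akr1c18, 115% for Alox12b, 84.0% for Krt2, 115% for Krt73, 125% for Slc9a4, 53.0% for Ly6g6e and 111% for Itprid1. Ly6g6e and Krt2 were below 100% in both sets. The difference between the sets was not tested, and all values of the set 37 to 39 rest on the same 1 library a group. In the CIE+IgG library of the set 37 to 39, CIE+IgG 3, the 13 striatal marker genes summed to 1392 CPM, against 266 and 273 CPM in the other 2 CIE+IgG libraries and 267 to 275 CPM in Air+IgG. In CIE+IL17 Ab libraries these markers summed to 303 to 892 CPM. Their mean centred log2 CPM was highest of that group, at 1.61, in CIE+IL17 Ab 3, which held the highest CPM of its group for 8 of 8 genes. The part of the striatal markers in the result was not tested.

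Markers of hippocampal cell types and of neighbouring regions also differed between the groups. No CA1 or dentate granule cell marker in the table was at 0 counts in any library. The CA2 and CA3 marker Iyd was at 0 counts in at least 1 CIE+IL17 Ab library and in no IgG library. All 13 thalamus and habenula markers in the table were tested, and 10 rose in CIE+IL17 Ab against CIE+IgG, with a median log2 fold change of 3.04, beside 1.78% of all genes called higher. They summed to 1475 to 2690 CPM in CIE+IL17 Ab libraries, 298 to 678 CPM in CIE+IgG libraries and 257 to 333 CPM in Air+IgG libraries. Pou4f1, a defining transcription factor of the habenula, averaged 8.58 ± 2.91 CPM in CIE+IL17 Ab, 0.0311 ± 0.0538 CPM in CIE+IgG libraries and 0.0316 ± 0.0547 CPM in Air+IgG libraries (SD, n = 3 each), and was at 0 counts in at least 1 library of each IgG group. Tcf7l2, a thalamic transcription factor, averaged 178 ± 52.9 CPM in CIE+IL17 Ab, 13.1 ± 12.1 CPM in CIE+IgG libraries and 6.18 ± 0.798 CPM in Air+IgG libraries (SD, n = 3 each). The 10 calls became 0 without CIE+IgG 1, 4 without CIE+IgG 2, 6 without Air+IgG 1 or Air+IgG 3 and 1 in libraries 54 to 60, where 10 of the 13 stood at an unadjusted p under 0.05, and they were 10 without both Lars2-rich libraries. The part of these markers in the low values of the 8 genes was not tested.

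Of 10 CA1 pyramidal neuron markers tested, 4 fell and 1 rose in CIE+IL17 Ab against CIE+IgG, beside 1.41% of all genes called lower, and the list's median was -1.54. Ccn3 had a log2 fold change of -3.49 (SE 0.53, edgeR adjusted p = 0.0242), Mpped1 -2.04 (adjusted p = 0.0372), Fibcd1 -1.65 (adjusted p = 0.0242) and Gpr161 -1.57 (adjusted p = 0.046), while Zdhhc22 rose by 2.15 (adjusted p = 0.0326). The CA1 markers summed to 208 to 334 CPM in CIE+IL17 Ab libraries, 514 to 773 CPM in CIE+IgG libraries and 753 to 817 CPM in Air+IgG libraries. CIE+IL17 Ab 3 was the highest antibody library for their mean centred level, as for the 8 genes. It was also highest for the CA2 and CA3, dentate, striatal, interneuron and neurogenesis lists. CIE+IL17 Ab 2 was highest for the thalamus and habenula, choroid plexus, and meningeal and pericyte lists. The 4 lower calls became 0 without CIE+IL17 Ab 2, CIE+IgG 1, CIE+IgG 2, Air+IgG 1 or Air+IgG 3, 2 without Air+IgG 2, 2 without both Lars2-rich libraries and 0 in libraries 54 to 60. Against Air+IgG, 5 CA1 markers fell and 1 rose, beside 6.71% of all genes called lower. These 5 became 3 without CIE+IL17 Ab 2, Air+IgG 1 or Air+IgG 2, 8 without CIE+IL17 Ab 3, and 0 without Air+IgG 3 or in libraries 54 to 60. Of 14 dentate granule cell markers, 0 were called by edgeR against CIE+IgG (median -0.52), and 3 were called lower without CIE+IL17 Ab 3. Against Air+IgG, 1 was called lower (median -0.80), and 14 of 14 lay below 0, beside 48.4% of all genes. That count became 5 without CIE+IL17 Ab 3, and 0 without CIE+IL17 Ab 2 or any 1 Air+IgG library. The dentate markers summed to 557 to 1242 CPM in CIE+IL17 Ab libraries, 1010 to 1570 CPM in CIE+IgG libraries and 1116 to 2256 CPM in Air+IgG libraries. Of 12 interneuron markers, Sst and Cnr1 fell, by 1.13 each on the log2 scale (edgeR adjusted p = 0.0461 and 0.0264). The 2 calls became 0 without CIE+IL17 Ab 2, CIE+IgG 1, CIE+IgG 2, Air+IgG 1 or Air+IgG 3 and in libraries 54 to 60, 1 without CIE+IL17 Ab 1 or Air+IgG 2, 4 without CIE+IgG 3 and 6 without CIE+IL17 Ab 3. Of 13 CA2 and CA3 markers, Grik4 fell by 1.15 (adjusted p = 0.0373), a call that held without CIE+IL17 Ab 3 or CIE+IgG 3 and was lost without any 1 of the other 7 libraries. Against Air+IgG, 3 CA2 and CA3 markers were called higher and 2 lower (median 0.31), beside 6.83% and 6.71% of all genes. These calls became 0 without CIE+IL17 Ab 2 or any 1 Air+IgG library. The list summed to 456 to 681 CPM in CIE+IL17 Ab libraries, 448 to 625 CPM in CIE+IgG libraries and 466 to 506 CPM in Air+IgG libraries. With all 9 libraries, the 8 adult neurogenesis, 13 striatal, 9 choroid plexus and 14 meningeal and pericyte markers gave 0 calls against CIE+IgG with edgeR and with limma-voom. At an unadjusted p under 0.05 edgeR then gave 3 dentate, 2 neurogenesis and 2 meningeal markers and 0 striatal or choroid plexus markers. DESeq2 called 2 dentate, 1 neurogenesis and 1 meningeal marker and 0 of the other lists at 0. Without CIE+IgG 3, edgeR called 1 striatal marker higher and gave 7 of the 13 at an unadjusted p under 0.05. In libraries 54 to 60, 8 striatal markers stood under it. Without CIE+IL17 Ab 3, edgeR called 1 neurogenesis marker lower. It called 1 meningeal or pericyte marker higher without CIE+IL17 Ab 3 or CIE+IgG 3. The part of these lists in the low values of the 8 genes was not tested either.

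**Figure D4:**
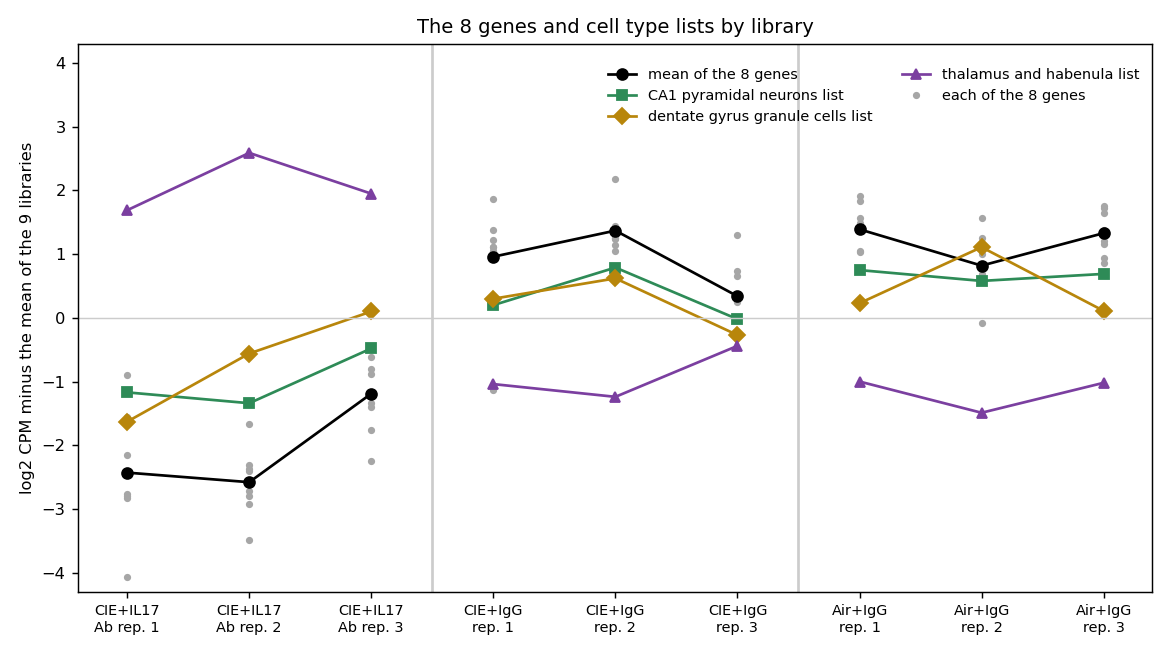
Log2 CPM centred on the mean of the 9 libraries, for each of the 8 genes (grey points), their mean (black) and the mean of the CA1, dentate gyrus, and thalamus and habenula marker lists, by library. The mean of the 8 genes lies between -2.58 and -1.19 in CIE+IL17 Ab libraries, where the thalamus and habenula list lies between 1.69 and 2.59, and between 0.34 and 1.39 in the IgG libraries.

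The genes whose levels ran most like the 8 were found by the root mean square difference between centred log2 CPM profiles over the 9 libraries. Crhbp, which encodes a binding protein of corticotropin-releasing hormone, was the closest at 0.31 log2 units, with 14, 29 and 44 counts in CIE+IL17 Ab libraries, against 128, 195 and 113 in CIE+IgG libraries and 224, 165 and 229 in Air+IgG libraries. Ankrd33b, Vxn, Vipr1, Slc9a2, Rspo2, Rprml and Spink8 followed, at 0.32 to 0.42. The members themselves lay at 0.29 for Itprid1, 0.33 for Krt2, 0.38 for Akr1c18 and Krt73 and 0.42 for Alox12b. Ntn5 lay at 0.61, Slc9a4 at 0.79 and Ly6g6e at 0.95. The 8 other genes were chosen as the nearest of all genes tested, so their smaller distances than those of some members are not read as a result. Of the 24 antibody values behind the members' distances, 16 were of at most 3 counts. Vipr1, a receptor of vasoactive intestinal peptide, had 17, 25 and 89 counts in CIE+IL17 Ab libraries, against 187, 217 and 146 in CIE+IgG libraries and 243, 177 and 288 in Air+IgG libraries. Rspo2, a secreted enhancer of Wnt signalling, had 7, 6 and 24 counts in CIE+IL17 Ab libraries, against 71, 110 and 82 in CIE+IgG libraries and 172, 68 and 250 in Air+IgG libraries. In all 3 of these genes, as in the 8, CIE+IL17 Ab 3 held the most counts of its group. The mean profile they were chosen by is itself highest in CIE+IL17 Ab 3 within that group, so nothing is read from this.

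A minority of the relatives of the 8 genes in their families and pathways passed the test, in both directions. Of 185 relatives listed, 99 were in the table and 97 were tested. Against CIE+IgG, 12 of the 97 were called in CIE+IL17 Ab (12.4%, beside 3.18% of all genes), 8 higher and 4 lower. Against Air+IgG, 21 were called (21.6%, beside 13.5% of all genes), 13 higher and 8 lower, where 6.83% and 6.71% of all genes were called higher and lower. In CIE+IgG against Air+IgG, edgeR called 0 of the 97, with 5 at an unadjusted p under 0.05, and DESeq2 and limma-voom called 0. The antibody counts rest on single libraries: the 12 calls became 0 without CIE+IgG 1, 2 without CIE+IgG 2, Air+IgG 1 or Air+IgG 3, 3 without CIE+IL17 Ab 2 and 19 without CIE+IL17 Ab 3. The 21 calls against Air+IgG became 0 without Air+IgG 3, 9 without CIE+IL17 Ab 2, 10 without Air+IgG 2 and 12 without Air+IgG 1, and both comparisons gave 0 in libraries 54 to 60. Each relative called against CIE+IgG thus lost its call without CIE+IgG 1, and each called against Air+IgG without Air+IgG 3.

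Of 11 netrins and netrin receptors, Ntng1, a membrane-anchored netrin, rose in the antibody group. It averaged 150 ± 72.3 CPM in CIE+IL17 Ab, 41.8 ± 4.94 CPM in CIE+IgG libraries and 50.0 ± 3.73 CPM in Air+IgG libraries (SD, n = 3 each), a log2 fold change of 1.85 (SE 0.30, edgeR adjusted p = 0.0264) against CIE+IgG. Against Air+IgG, Ntn4 and the receptor Unc5b also rose, by 0.90 and 0.82, and the receptor Unc5a fell by 1.43. None of the 19 aldo-keto reductases and neurosteroid enzymes was called by edgeR against CIE+IgG, with a median of 0.01, and Hsd3b7 had the smallest p (log2 fold change 0.57, adjusted p = 0.128). At an unadjusted p under 0.05 edgeR gave 4 of the 19, and DESeq2 and limma-voom called 0. Against Air+IgG, Cyp11a1, which starts steroid synthesis from cholesterol, fell by 1.3 on the log2 scale (edgeR adjusted p = 0.0456), with 0.883 ± 0.127 CPM in CIE+IL17 Ab, 1.50 ± 0.419 CPM in CIE+IgG libraries and 2.20 ± 0.656 CPM in Air+IgG libraries (SD, n = 3 each). That call was lost with DESeq2, with limma-voom, in libraries 54 to 60, and without any single library other than CIE+IgG 3.

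With all 9 libraries, no tested relative of the skin genes Krt2, Krt73 and Alox12b was called lower by edgeR. Without CIE+IL17 Ab 3, edgeR called 1 keratin and 1 lipoxygenase or partner lower in each antibody comparison. Without CIE+IL17 Ab 1 it called 1 lipoxygenase or partner lower against Air+IgG. Without both Lars2-rich libraries it called 2 lipoxygenases or partners and 1 epidermal barrier gene lower against Air+IgG, and 1 keratin higher. Of 36 other keratins listed, 9 were tested. With all 9 libraries, 0 were called by edgeR in either antibody comparison, with a median of -0.47 against CIE+IgG. Krt1, a type II keratin 27257 bases from Krt2, had 15, 15 and 8 counts in CIE+IL17 Ab libraries, against 11, 21 and 23 in CIE+IgG libraries and 23, 8 and 14 in Air+IgG libraries. The groups of Krt1 overlapped throughout. The log2 fold change against CIE+IgG was -0.53 (SE 0.47, edgeR adjusted p = 0.556) for Krt1 and -0.58 (SE 0.48, adjusted p = 0.531) for Krt77, while Krt222 had the smallest p among the keratins (log2 fold change 0.34, adjusted p = 0.188). Only 1 keratin in each antibody comparison stood at an unadjusted p under 0.05 with edgeR, and DESeq2 and limma-voom called 0. Of 5 epidermal barrier genes tested, 0 were called against CIE+IgG by edgeR or limma-voom, 1 was called by DESeq2 and 1 stood at an unadjusted p under 0.05 with edgeR. Against Air+IgG, Jup, which encodes plakoglobin of cell junctions, rose by 0.88 (edgeR adjusted p = 0.0246). Krt5, Krt14, Flg and Ivl, defining genes of the epidermis, were not among the genes analysed here, and Lor, another, was in the table but did not pass the filter on low counts. Aloxe3, the partner of Alox12b, had 45, 73 and 48 counts in CIE+IL17 Ab libraries, against 79, 67 and 62 in CIE+IgG libraries and 123, 46 and 101 in Air+IgG libraries. With all 9 libraries, none of the 9 lipoxygenases and partners was called by edgeR in either antibody comparison. Ephx2, an epoxide hydrolase, had the smallest p (log2 fold change -0.63, edgeR adjusted p = 0.0822). At an unadjusted p under 0.05 edgeR gave 1 of the 9 against CIE+IgG and 3 against Air+IgG, DESeq2 called 1 lower in each comparison, and limma-voom called 0 against CIE+IgG and 1 lower against Air+IgG.

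Among 12 sodium-proton exchangers and their scaffold proteins, Slc9a2 was the only one called lower. Slc9a2 had 21, 20 and 86 counts in CIE+IL17 Ab libraries, against 291, 216 and 221 in CIE+IgG libraries and 265, 180 and 280.99 in Air+IgG libraries. Its log2 fold change was -2.52 (SE 0.50, edgeR adjusted p = 0.042) against CIE+IgG and -2.57 (SE 0.50, adjusted p = 0.0188) against Air+IgG. CIE+IL17 Ab 3 held the most counts of the group, but Slc9a2 is also among the genes picked above for a profile like that of the members. The call of Slc9a2 against CIE+IgG held when CIE+IL17 Ab 3 or CIE+IgG 3 was left out and was lost when any other single library was left out. Slc9a3r2, a scaffold protein of exchangers, rose by 0.45 (adjusted p = 0.0494) against CIE+IgG and by 0.72 against Air+IgG, where Slc9a5 also rose, by 0.91.

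Among 9 Ly6 and related three-finger proteins, Ly6e fell in the antibody group, to 68.4 ± 9.52 CPM in CIE+IL17 Ab, against 121 ± 14.8 CPM in CIE+IgG libraries and 116 ± 6.16 CPM in Air+IgG libraries (SD, n = 3 each), a log2 fold change of -0.82 (SE 0.12, edgeR adjusted p = 0.0242) against CIE+IgG. Of 10 nicotinic receptor subunits, 5 rose against CIE+IgG, a count that became 0 without CIE+IgG 1 and 2 without CIE+IL17 Ab 2, CIE+IgG 2, Air+IgG 1 or Air+IgG 3. Chrnb3 rose by 4.91 (adjusted p = 0.0154), Chrna3 by 4.32 (adjusted p = 0.00509), Chrnb4 by 2.54 (adjusted p = 0.0435), Chrna4 by 1.70 (adjusted p = 0.0242) and Chrnb2 by 0.51 (adjusted p = 0.0258) on the log2 scale. Chrna3 and Chrnb3 also stand in the thalamus and habenula list. Chrna4 and Chrnb2, which form the receptor that Ly6g6e is known to modulate, averaged 97.7 ± 15.4 and 111 ± 9.96 CPM in CIE+IL17 Ab, 30.2 ± 10.1 and 78.3 ± 2.30 CPM in CIE+IgG, and 30.2 ± 6.50 and 74.7 ± 2.82 CPM in Air+IgG (SD, n = 3 each). Against Air+IgG, Chrna5 fell by 2.54 (adjusted p = 0.0243).

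Of 14 inositol trisphosphate receptors and interacting proteins, Plcb4 rose by 1.89 (edgeR adjusted p = 0.0326), and Homer1 and Plcb1 fell by 0.96 (adjusted p = 0.0327) and 0.91 (adjusted p = 0.0326), against CIE+IgG. Plcb4 and Plcb1 encode phospholipases that release inositol trisphosphate, and Homer1 links its receptors to glutamate receptors. Itprid2, the nearest relative of Itprid1 by name, had a log2 fold change of 0.07 and was not called.

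**Figure D5:**
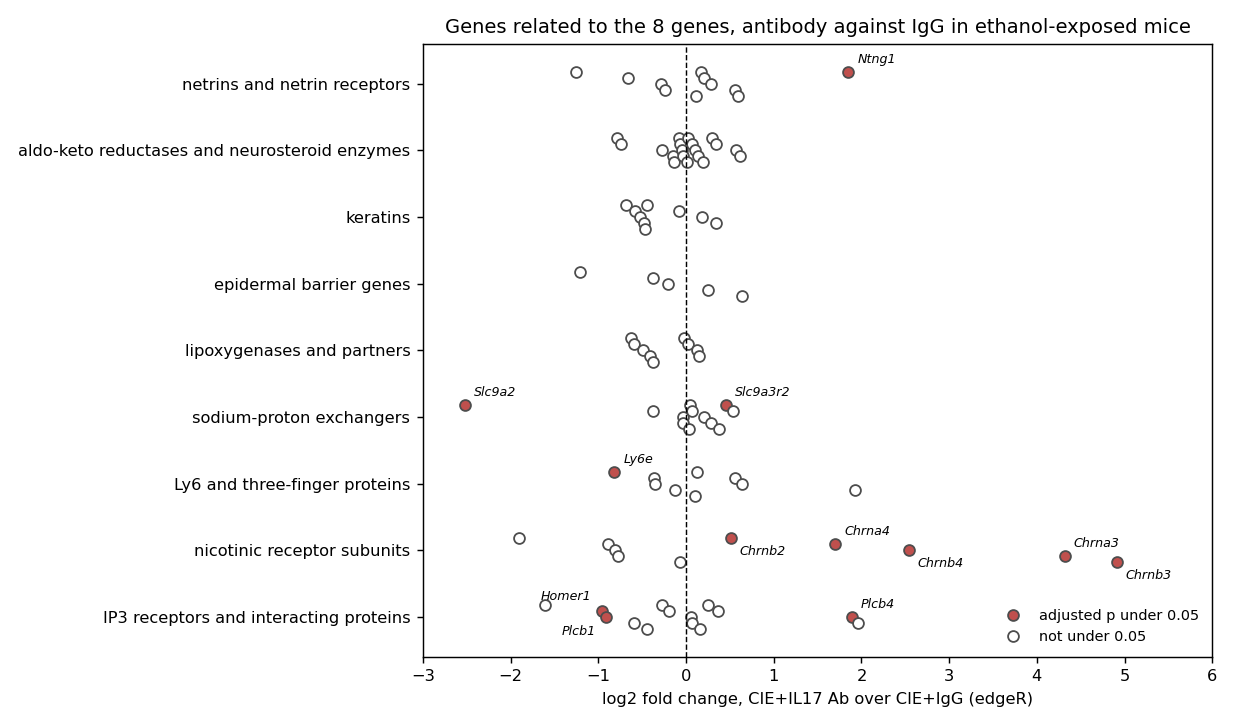
Log2 fold change in CIE+IL17 Ab over CIE+IgG (edgeR) of the 97 tested relatives, by family, with filled points for an adjusted p under 0.05. The 12 filled points lie in 5 of the 9 families, with 5 higher nicotinic receptor subunits and Slc9a2, at -2.52, the lowest of all.

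Of the neighbours on the chromosomes, edgeR called 1 against CIE+IgG and 2 against Air+IgG. Within 100 kb of the 8 genes, 37 other genes were tested, and against CIE+IgG 1 was called lower and 0 higher by edgeR, as by DESeq2 and limma-voom, with 5 at an unadjusted p under 0.05 in edgeR. Of all genes, edgeR called 1.41% lower in this comparison. The gene edgeR called was Slc9a2, 49849 bases from Slc9a4. Against Air+IgG, Slc9a2 and Sec1 were called lower, beside 6.71% of all genes. The 2 lower calls became 0 without CIE+IL17 Ab 2, Air+IgG 1, Air+IgG 2 or Air+IgG 3 and in libraries 54 to 60. They became 1 without CIE+IgG 1 and 4 without CIE+IL17 Ab 3. Sec1, which overlaps Ntn5 on the other strand, had 4.28, 3 and 7.53 counts in CIE+IL17 Ab libraries, against 12.92, 22.74 and 11.24 in CIE+IgG libraries and 41.77, 7.58 and 28.89 in Air+IgG libraries. The log2 fold change of Sec1 was -2.40 (SE 0.66, edgeR adjusted p = 0.044) against Air+IgG and -1.66 (SE 0.68, adjusted p = 0.195) against CIE+IgG. Aloxe3 and Alox8, 7874 and 14140 bases from Alox12b, were not called, with log2 fold changes of -0.38 (SE 0.28) and 0.12 (SE 0.60) against CIE+IgG.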

How the data were processed

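Polyadenylated RNA of mouse hippocampus was measured in 9 libraries, 3 in each of CIE+IL17 Ab, CIE+IgG and Air+IgG, with groups taken from the sample titles. The authors deposited expected counts, unscaled, for 14779 genes. STAR 2.5.1a, RSEM 1.3.0 and GRCm38 are listed, without their roles, per the submitters' processing notes. Annotation release, strand setting and filters were not stated. Every gene had at least 6 counts in 3 or more libraries, and 27.1% of values had decimals, because reads that fit several genes are shared out between them. Symbols and coordinates came from GENCODE M21 and matched 14628 of the identifiers.

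Counts were rounded to whole numbers for tests, summed for shares, and printed per library as deposited. edgeR 4.0.16 in R 4.3.3 was run with filterByExpr (minimum count 10), TMM factors and a robust quasi-likelihood F-test over the 9 libraries together (1 mean a group, 6 residual degrees of freedom), and p-values were adjusted by Benjamini-Hochberg over 14696 genes with a threshold of 0.05. The common biological coefficient of variation was 0.189. CPM values are TMM-scaled. Shares are ratios of summed counts corrected for effective library size, with 95% Clopper-Pearson intervals of counting error. Profiles are log2 CPM with a prior count of 2. No pair of libraries of 1 group agreed within sampling noise.

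The 8 genes, the lists of relatives and cell type markers and the tests were chosen with earlier results of these data known, and the genes were chosen for low antibody-group counts, so no test of them is given in comparisons with that group. The rule for naming took the 8 genes and the 8 genes nearest to their mean profile. It also took the called relatives of each list, or else the one with the smallest p, and at most 4 called markers of each cell type list. Not all genes of this rule are mentioned, and Gpr161 and Hsd3b7 were named outside it. Krt1, Krt77, Aloxe3, Alox8, Itprid2, Sec1, Lars2, 2210418O10Rik, Gemin4, Fermt1, Lefty1 and Tcf7l2 were added after their values were seen. Alternatives were DESeq2 1.42.0 as the test or for size factors alone, limma-voom (limma 3.58.1), no filter, a strict filter (over 1 CPM in each of 9 libraries), only the groups compared, a replicate or label number block, only libraries 54 to 60, each library left out in turn, and a prior count of 2. Leaving out both Lars2-rich libraries was chosen after seeing the data. The fits were tested on simulated counts.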

Additional observations from a re-analysis of the deposited data

How the results depend on the processing

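In CIE+IgG against Air+IgG, 0 of the 8 genes and 0 of their relatives were called under every alternative run, and among all genes DESeq2 called 6 where edgeR and the other alternatives called 0. The strict filter kept none of the 8 genes, so it gave no value for them. Over all genes, the 468 calls in CIE+IL17 Ab against CIE+IgG became 1481 with DESeq2, 776 with the label number as a block, 1 with only the 2 groups compared, 14 with the replicate block and 1 in libraries 54 to 60, and ran from 0 to 1313 with 1 library left out. The 1990 calls in CIE+IL17 Ab against Air+IgG became 1192 with only the 2 groups compared, 571 with the replicate block, 2 in libraries 54 to 60 and 1067 without both Lars2-rich libraries, and ran from 0 to 2305 with 1 library left out. The 12 relatives called against CIE+IgG became 21 with DESeq2, 1 with only the 2 groups compared, 2 with the replicate block and 0 in libraries 54 to 60, and ran from 0 to 19 with 1 library left out. The 21 called against Air+IgG became 13 with the replicate block and 0 in libraries 54 to 60, and ran from 0 to 26. Where a group was left with 1 or 2 libraries, the spread was shared with the other groups. The causes were not tested. The libraries were not treated as paired by replicate number. Deviations of libraries with the same number correlated between -0.27 and 0.25, a check that cannot exclude a pairing because single libraries weigh heavily in it. Of 453 fold changes of the 8 genes under the alternatives, 24 moved by at least the gene's SD of log2 CPM. This SD is between libraries of a group, pooled over the 2 groups compared, and all 24 were in antibody comparisons. In the antibody comparisons 0 changed sign. The other 429 moved less or belonged to CIE+IgG against Air+IgG, where shifts were not set against the SD. Some estimates there changed sign, such as that of Akr1c18, at -0.34 in the main fit and up to 0.07 under the alternatives. The naming rule took 51 other genes, not all of them mentioned above. Of their values with 1 library left out, 1070 kept their direction and side of the threshold, 287 lost a call and 20 gained one. Under the other alternatives 1151, 159 and 35 did so. Since 16 of the 24 antibody values of the 8 genes were of at most 3 counts, depth limits how well the size of each low value is known.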
